A study of Mus musculus with 6 samples.

Results

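The collagen chain genes are the genes whose symbol on the array's annotation is Col, a number, the letter a and a number. Membership was set by symbol alone, though the family was chosen with earlier results of these data known. Of the 18193 genes measured, 42 were members. Each was represented by the probe set (a group of short probes for 1 transcript) with the highest mean over the 6 arrays, among probe sets annotated to that gene only. The members comprised 11 fibrillar chains, 6 chains of the basement membrane and 25 other chains.

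RNA came from pancreatic islets, the clusters of hormone-secreting cells of the pancreas, of male CD1 mice, 8 weeks of age, and the islets were kept in culture medium overnight. The vehicle group received 0.1% ethanol and the CMPF group 200 uM CMPF, a furan fatty acid that circulates in blood, each for 24 hours. Each group held 3 samples numbered 1 to 3, with 1 array each, and the labels do not say whether samples of a group came from different animals, or what the numbers stand for. Vehicle 1 and CMPF 1, and so on, are called a pair below because arrays of the same number deviated together from their group means. The series title names metabolism as its subject, so collagen is one of the gene families in which the 2 groups can be compared.

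A collagen is a triple helix of 3 chains, each built largely of repeats that start with glycine. Fibrillar chains assemble into the banded fibres of connective tissue, whereas type IV chains form the sheet-like network of basement membranes. In islets, the basement membrane lies mainly along the blood vessels and is made largely by endothelial cells, and fibrillar collagen is made by stellate cells and fibroblasts of the capsule and septa. The arrays measured RNA of the whole islet preparation, so fewer cells of a type and less RNA per cell cannot be told apart.

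Values are log2 levels, and a difference is CMPF minus vehicle in log2 units. The median level over all genes was 6.42. Of the 42 members, 15 had a mean at or above it and are called the bright members: 7 of 11 fibrillar chains, Col4a1 and Col4a2 of the basement membrane, and 6 of 25 other chains. Another 16 lay between the lower quartile of all genes, 4.53, and that median, and 11 lay below the quartile. No detection calls were used, so a dim member could not be told from one that is not expressed. Apart from this sorting of genes by level, levels of different genes are not compared, since probes differ in their response. The sorting is rough for the same reason.

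Limma called 0 of the 42 members between CMPF and vehicle at an adjusted p under 0.05, and 0 of all 18193 genes (0%). With the pair number as a block it called 0 members and 0% of genes as well. An unadjusted p under 0.05 was reached by 1 member, Col13a1, against 1.13% of all genes, and with the block by 2, Col13a1 and Col22a1, against 3.8%. The 42 differences ran from -0.29 to 0.32 with a median of -0.02, beside 0.0018 over all genes. Of the members 22 had a difference below 0, against 49.3% of genes. In each of 41 members the 95% interval of the difference included 0, and it excluded 0 for Col13a1.

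The bright members had a wide spread between arrays. The median spread from the lowest to the highest of the 6 arrays was 1.24 for the 15 bright members and 0.33 for all genes at or above the median level. In 13 of 15 the value was lower with CMPF in pairs 1 and 2 and higher in pair 3, a pattern found in 23.1% of genes at or above the median level. This pattern was chosen after the values were seen. CMPF 3 was the highest of the 6 arrays for 13 of 15 bright members, against 15.9% of genes at that level, and CMPF 2 the lowest for 10 of 15, against 17.8%. The spread was larger within the CMPF group than within the vehicle group for 14 of 15, against 62.1% of genes at that level, with median SDs of 0.67 and 0.22. Array 3 was the highest of its group with vehicle as well, by the mean of the 7 bright fibrillar members. That mean was 9.16, 9.23 and 9.64 with vehicle 1, 2 and 3 and 8.90, 8.77 and 9.91 with CMPF 1, 2 and 3.

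**Figure D1:**
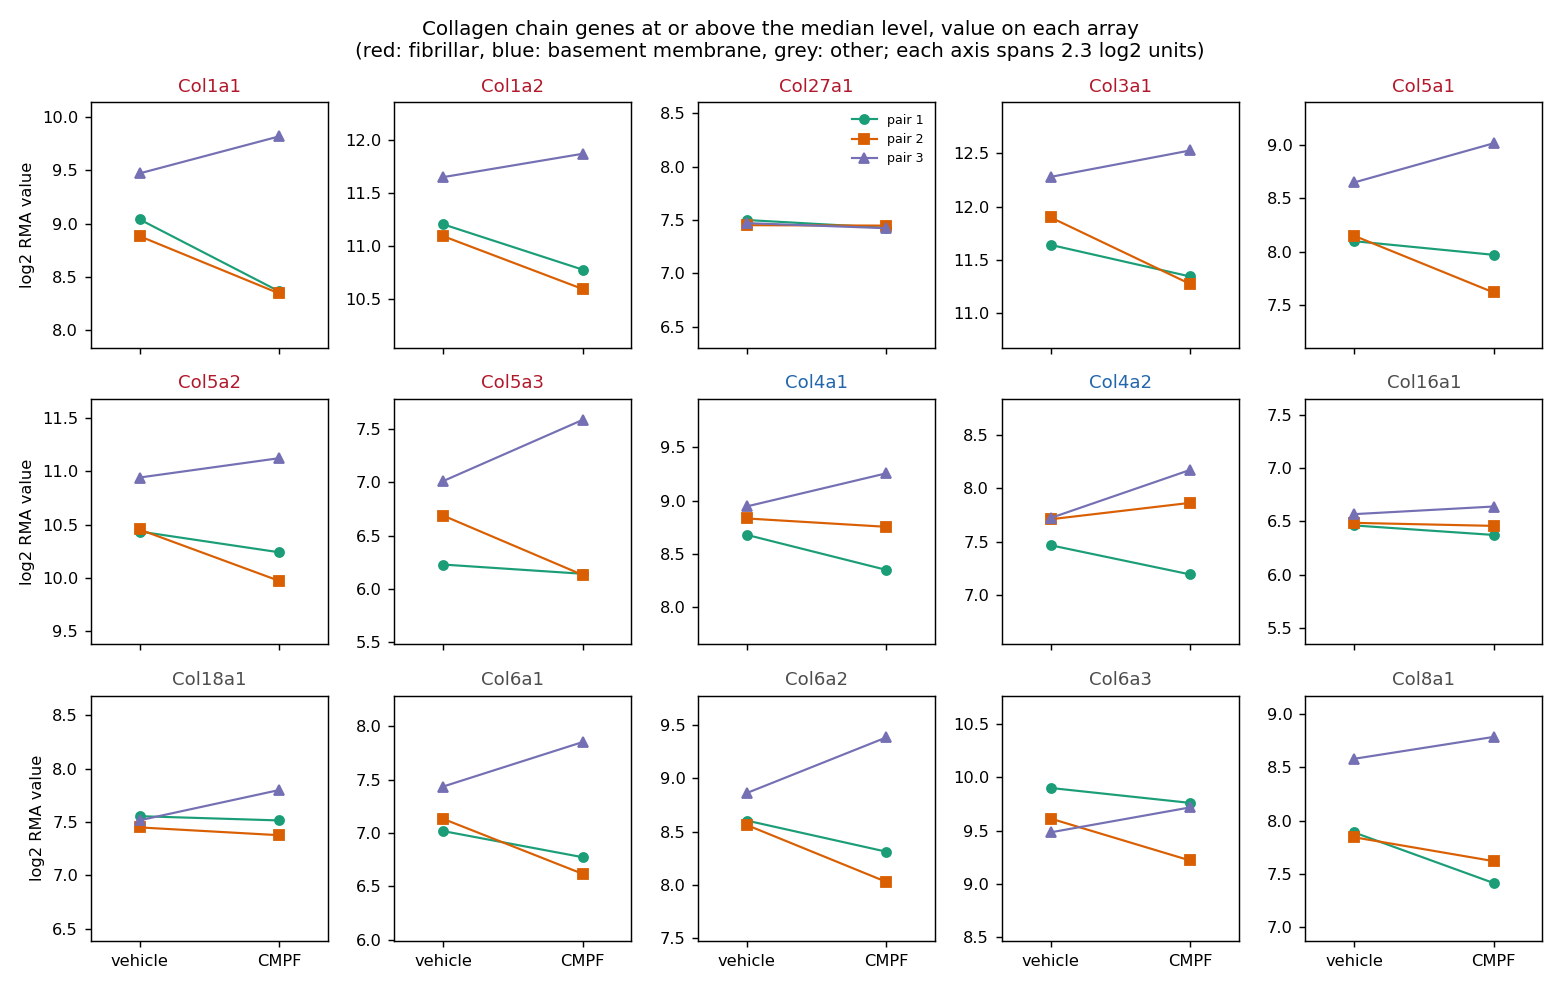
Log2 level of the 15 bright collagen chain genes with vehicle and with CMPF, 1 panel per gene and 1 line per pair. Pair 3 (triangles) rises in all panels but Col27a1, and pair 1 (circles) falls in all 15.

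The promoters of 3 bright fibrillar chains and the start sites of the paired basement membrane genes are shown as sequence background. No rule picked these genes, and any link between their motifs and the levels was not tested. Of the 42 members 33 had an entry in the RefSeq promoter table (GRCm38.p6), with 36 windows in all. Each line gives the 250 bases before the annotated start, with matches on either strand in capitals. The motifs searched were the CCAAT box (CCAAT), the TATA box (TATAAA) and the GC box (GGGCGG); no match overlapped another in the windows shown.

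Col1a2, chr6:4505368-4505617, plus strand: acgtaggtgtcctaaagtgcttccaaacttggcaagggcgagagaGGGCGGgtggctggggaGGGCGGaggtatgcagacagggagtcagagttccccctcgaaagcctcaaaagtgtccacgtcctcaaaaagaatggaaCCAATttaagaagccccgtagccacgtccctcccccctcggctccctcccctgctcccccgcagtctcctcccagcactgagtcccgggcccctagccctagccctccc
Col3a1, chr1:45311288-45311537, plus strand: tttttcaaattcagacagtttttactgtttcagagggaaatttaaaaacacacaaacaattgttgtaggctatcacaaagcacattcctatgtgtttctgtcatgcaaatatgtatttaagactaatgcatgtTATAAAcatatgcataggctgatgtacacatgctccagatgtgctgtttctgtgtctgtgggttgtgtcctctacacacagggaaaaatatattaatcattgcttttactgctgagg
Col5a1, chr2:27886175-27886424, plus strand: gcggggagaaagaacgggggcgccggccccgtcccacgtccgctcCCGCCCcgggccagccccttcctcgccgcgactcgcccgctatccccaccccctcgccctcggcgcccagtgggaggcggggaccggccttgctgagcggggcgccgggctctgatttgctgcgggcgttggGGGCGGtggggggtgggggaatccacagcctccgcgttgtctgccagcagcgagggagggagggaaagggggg

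The CCAAT letters, read by the factor NF-Y, were present once in the Col1a2 window, 109 bases before the start. The TATAAA letters were present once in the Col3a1 window, 117 bases before the start. The GGGCGG letters, the GC box read by Sp1, were present in the Col1a2 window at 205 and 188 bases before the start and in the Col5a1 window at 205 and 73. Among bright chains with the same pair signs but no window shown, Col6a1 had 0 matches to any of the motifs and Col8a1 had 4 GC boxes. Over the 36 member windows, CCAAT was present in 13, TATAAA in 5 and GGGCGG in 21. Over all 32851 promoter windows of the same length the shares were 33.8%, 12.4% and 32.7%. These are matches of letters and not measured binding.

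Col4a1 and Col4a2 lie head to head on chromosome 8. In the same table Col4a1 starts at position 11312826 on the minus strand and Col4a2 at position 11312805 on the plus strand, so their starts lie within 22 bases, which belong to the first transcribed bases of both. This stretch holds 1 GC box, in capitals.

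Start sites of Col4a1 and Col4a2, chr8:11312805-11312826, plus strand: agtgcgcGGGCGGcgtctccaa

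The fibrillar chains held the differences farthest below 0. All 7 bright fibrillar members had a difference below 0, where 57.7% of genes at or above the median level did, and the median was -0.16. Their pair medians were -0.20, -0.53 and 0.25. Over all 11 fibrillar chains 9 differences lay below 0, and the median was -0.10.

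Col1a1 encodes the main chain of type I collagen, the most abundant fibre of connective tissue. It read 9.04, 8.88 and 9.47 with vehicle 1, 2 and 3 and 8.36, 8.35 and 9.82 with CMPF 1, 2 and 3. CMPF 1 and 2 lay below all vehicle arrays and CMPF 3 above all of them, so the groups overlapped. The means were 9.13 ± 0.30 (SD, n = 3) and 8.84 ± 0.84 (SD, n = 3), a difference of -0.29 (SE 0.39, 95% interval -1.21 to 0.63; limma adjusted p = 0.99995). In the limma fit with the block the SE was 0.20 and the adjusted p 0.979.

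Col1a2, its partner chain, read 11.20, 11.09 and 11.65 with vehicle and 10.78, 10.60 and 11.87 with CMPF. The order of the arrays was the same in kind as for Col1a1, with CMPF 1 and 2 lowest and CMPF 3 highest. The difference was -0.23 (SE 0.33), and the 95% interval included 0.

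Col3a1 encodes type III collagen, which forms fibres together with type I. It read 11.64, 11.90 and 12.28 with vehicle and 11.34, 11.27 and 12.53 with CMPF, a difference of -0.22 (SE 0.34, 95% interval -1.02 to 0.57). Again the CMPF arrays enclosed the vehicle arrays from both sides.

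The type V chains regulate the start and the width of type I fibres. Col5a1 read 8.10, 8.15 and 8.65 with vehicle and 7.97, 7.62 and 9.02 with CMPF, a difference of -0.10 (SE 0.35). Col5a2 read 10.44, 10.46 and 10.94 with vehicle and 10.24, 9.97 and 11.12 with CMPF, a difference of -0.16 (SE 0.29). Col5a3 read 6.23, 6.69 and 7.01 with vehicle and 6.14, 6.13 and 7.59 with CMPF, a difference of -0.02 (SE 0.40). All 3 were lower with CMPF in pairs 1 and 2 and higher in pair 3, by 0.18 to 0.57.

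Col27a1, a fibrillar chain best known from cartilage, stood apart from this pattern. It read 7.50, 7.45 and 7.47 with vehicle and 7.43, 7.45 and 7.42 with CMPF. The groups did not overlap, but the difference was -0.04 (SE 0.077), and its pair 2 difference was -0.0043. It was the 1 member whose groups did not overlap with CMPF lower, against 2.11% of all genes.

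The 4 other fibrillar chains were dim. Col24a1 was lower with CMPF in all 3 pairs, with a difference of -0.17 (SE 0.096) and a mean level of 2.34 over the 6 arrays. Col2a1, the main chain of cartilage collagen, differed by -0.02, and Col11a1 and Col11a2, its companions in cartilage fibres, by 0.10 and 0.16.

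Among the basement membrane chains, Col4a1 and Col4a2, which together form the ubiquitous type IV network, were bright. Col4a1 read 8.68, 8.83 and 8.95 with vehicle and 8.35, 8.75 and 9.26 with CMPF, a difference of -0.03 (SE 0.22, 95% interval -0.54 to 0.48). Col4a2 read 7.47, 7.71 and 7.72 with vehicle and 7.19, 7.86 and 8.17 with CMPF, a difference of 0.11 (SE 0.24, 95% interval -0.44 to 0.66). For both genes CMPF 1 was the lowest array and CMPF 3 the highest.

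In pairs 1 and 3 these 2 genes moved in the direction of the fibrillar chains, by -0.33 and 0.31 for Col4a1 and by -0.27 and 0.45 for Col4a2. In pair 2 they differed by -0.08 and 0.15, where the bright fibrillar members had a median of -0.53. CMPF 2 lay below all vehicle arrays for 7 of 7 bright fibrillar members, for 6 of 6 bright other members and for 0 of these 2 genes, against 26.4% of all genes at or above the median level. For some the margin was very small. CMPF 2 read 7.447 against a lowest vehicle value of 7.452 for Col27a1, and 6.458 against 6.462 for Col16a1. The difference between the classes was not tested.

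The remaining type IV chains, found in specialised basement membranes such as those of the kidney, were all below the median level. Their differences were 0.11 for Col4a3, 0.04 for Col4a4, 0.05 for Col4a5 and 0.19 for Col4a6. Col4a3 was higher with CMPF in all 3 pairs, by 0.04 to 0.21. Its further probe set was lower in all 3, with pair differences of -0.44, -0.07 and -0.07. Further probe sets differed by -0.11 and 0.11 for Col4a4, by -0.0042 for Col4a5 and by -0.10 for Col4a6. Over the 6 basement membrane chains the median difference was 0.08, with 1 difference below 0.

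**Figure D2:**
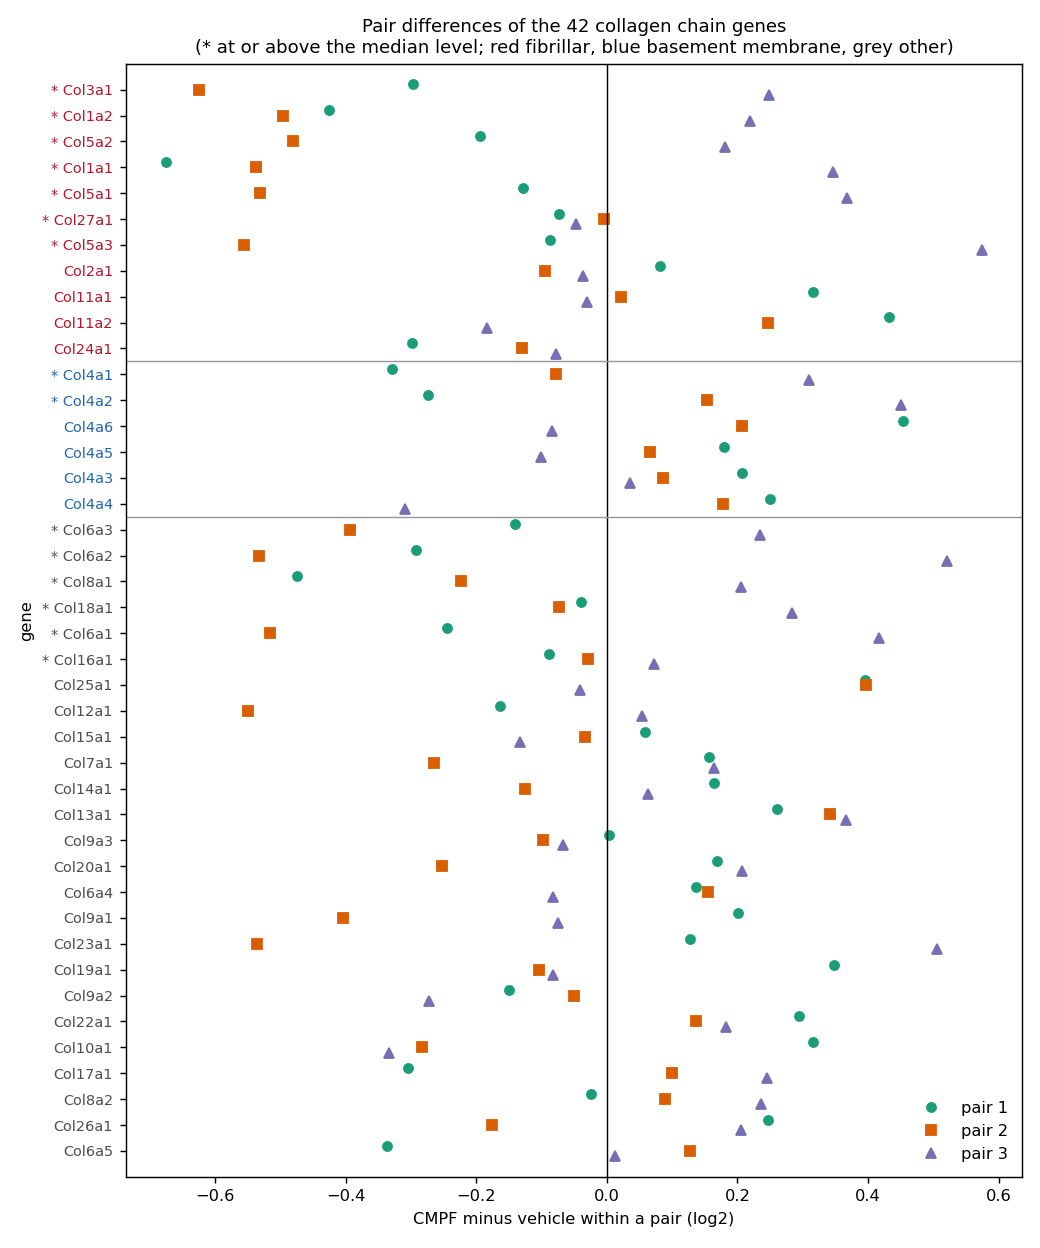
CMPF minus vehicle within pair 1, 2 and 3 for each of the 42 collagen chain genes, ordered by class and, within a class, by mean level; symbols are offset vertically for legibility. In the bright members (asterisk) squares and circles lie mostly left of 0 and triangles right of it, while the dim members are mostly right of 0 in pair 1.

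Of the other chains, those of type VI, which form beaded filaments around cells, held 3 bright members. Col6a1 read 7.02, 7.13 and 7.43 with vehicle and 6.77, 6.62 and 7.85 with CMPF, a difference of -0.11 (SE 0.31). Col6a2 read 8.60, 8.56 and 8.86 with vehicle and 8.31, 8.03 and 9.38 with CMPF, a difference of -0.10 (SE 0.32). For both, CMPF 1 and 2 were the lowest arrays and CMPF 3 the highest, as for the chains of types I, III and V.

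Col6a3, the longest of these type VI chains, read 9.90, 9.61 and 9.48 with vehicle and 9.76, 9.22 and 9.72 with CMPF, a difference of -0.10 (SE 0.17). Here vehicle 1 was the highest array, while the signs of the pair differences were those of the other bright chains. The dim chains Col6a4 and Col6a5 differed by 0.07 and -0.07.

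Col8a1, a short network-forming chain of vessel walls and other tissues, read 7.89, 7.84 and 8.58 with vehicle and 7.42, 7.62 and 8.79 with CMPF, a difference of -0.16 (SE 0.37). Col18a1, a basement membrane proteoglycan that carries endostatin at its end, read 7.56, 7.45 and 7.52 with vehicle and 7.52, 7.38 and 7.80 with CMPF, a difference of 0.06 (SE 0.12). Col16a1, a chain bound to fibril surfaces, read 6.46, 6.49 and 6.57 with vehicle and 6.37, 6.46 and 6.64 with CMPF, a difference of -0.02 (SE 0.099). The last 2 spanned 0.42 and 0.27 from the lowest to the highest array, while Col8a1 spanned 1.37.

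Col12a1, a fibril-associated chain just below the median level, read 6.09, 6.17 and 6.79 with vehicle and 5.92, 5.62 and 6.85 with CMPF. Its order over the arrays was that of the bright fibrillar chains, with a difference of -0.22 (SE 0.33). The gene's further probe sets, all dimmer, differed by 0.14, -0.02 and 0.04. Each of them was higher with CMPF in pairs 1 and 2 and lower in pair 3.

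Col13a1, a transmembrane collagen of cell adhesion sites, was higher with CMPF on every array. It read 5.33, 5.30 and 5.49 with vehicle and 5.59, 5.64 and 5.85 with CMPF, with pair differences of 0.26, 0.34 and 0.37. The groups did not overlap, and it was the 1 member to do so with CMPF higher, against 2.41% of all genes. The difference was 0.32 (SE 0.11, 95% interval 0.07 to 0.57) and did not pass after adjustment over all genes (limma adjusted p = 0.99995; 0.979 with the block). Its level lay below the median of all genes, and the gene had 1 probe set, so no other probe set could be compared.

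Col22a1, a chain of tissue junctions, read 4.56, 4.38 and 4.58 with vehicle and 4.86, 4.52 and 4.76 with CMPF. The groups overlapped, while all 3 pairs were higher with CMPF, and the difference was 0.20 (SE 0.12). Further probe sets of this gene differed by 0.03 and 0.14, and neither was higher in all 3 pairs. Col25a1, a transmembrane chain found mainly in neurons, read 6.25, 6.01 and 6.29 with vehicle and 6.65, 6.41 and 6.25 with CMPF. It was higher by 0.40 in each of pairs 1 and 2 and lower by 0.04 in pair 3, and its second probe set differed by -0.06 on average.

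On the chosen probe sets, 3 of all 42 members were higher with CMPF in all 3 pairs (Col13a1, Col22a1 and Col4a3), against 11.8% of all genes. Another 3 were lower in all 3 pairs (Col24a1, Col27a1 and Col9a2), against 11.1%. Both counts are near the shares over all genes.

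The other dim members were the fibril-associated chains Col9a1, Col9a2, Col9a3, Col14a1, Col19a1 and Col20a1, the anchoring fibril chain Col7a1, the short chains Col8a2 and Col10a1, the multiplexin Col15a1, the transmembrane chains Col17a1 and Col23a1, and Col26a1. Their differences lay between -0.16 (Col9a2) and 0.10 (Col8a2). Of all 27 dim members 6 were below 0 in pair 1, against 35.5% of genes below the median level, with a median of 0.17. In the same pair 15 of 15 bright members were below 0, against 66.5% of genes at or above that level, so in pair 1 the sign of a difference went with brightness over all genes. In pairs 2 and 3 the dim members' medians were -0.03 and -0.04.

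**Figure D3:**
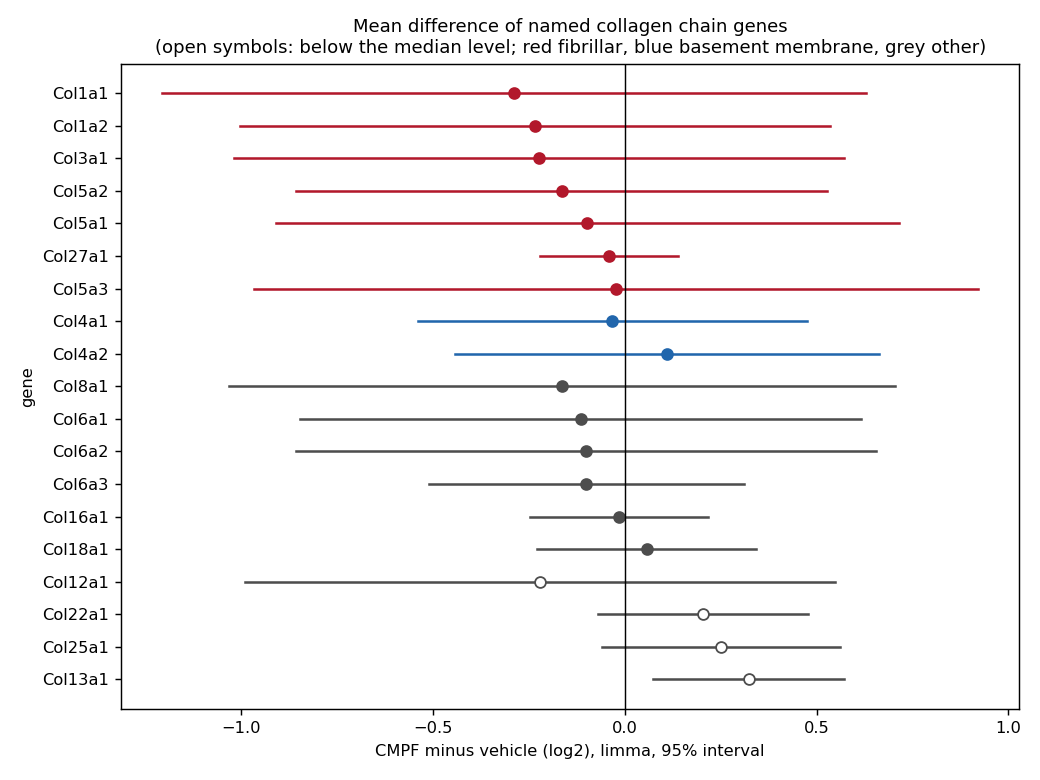
Mean difference (CMPF minus vehicle, log2) of 19 collagen chain genes with its 95% interval from limma; the 15 bright members are filled symbols. All intervals but that of Col13a1 include 0.

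Of the 42 members 27 had more than 1 probe set. Among the 40 further probe sets, 9 lay at or above the median level, and for 9 of those 9 the difference had the sign of the chosen one. For Col1a1 the further probe set differed by -0.19, for Col3a1 by -0.26 and for Col5a2 by -0.29. Within pairs, the bright further set of Col8a1 differed by -0.0070 in pair 3 and that of Col6a2 by 0.00061 in pair 1. The other bright further sets had the pair signs of their chosen sets. Among the 31 dimmer probe sets 11 had the same sign as the chosen one. One dimmer set of Col5a1 differed by 0.26, and with means over probe sets Col5a1 differed by 0.035.

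The genes that make and handle collagen were also compared. None of the 6 lists below held a gene past the threshold, with unadjusted p under 0.05 for 0 genes without the block and 1 gene with it (Gp6). Of the 18 measured genes of collagen modification and folding, the enzymes and chaperones of the endoplasmic reticulum, 1 was higher and 2 lower in all 3 pairs, with a median of -0.0084. Plod3, a lysyl hydroxylase, differed by 0.09 (SE 0.085), Mia3, which loads procollagen for export, by -0.12 (SE 0.12), and the dim prolyl hydroxylase subunit P4ha3 by 0.16 (SE 0.095).

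Of 10 genes that trim or cross-link collagen outside the cell, 2 were higher and 0 lower in all 3 pairs. Bmp1, the protease that removes the C-propeptide, read 7.63, 7.53 and 7.61 with vehicle and 7.69, 7.74 and 7.77 with CMPF, without overlap (difference 0.14, SE 0.081). Its dim relative Tll1 did not overlap either and differed by 0.11, and Tll2 differed by -0.06. Groups without overlap and with CMPF higher were found in 2.41% of all genes.

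Of 11 genes of collagen breakdown and its control, 1 was higher and 0 lower in all 3 pairs, with a median of -0.10. The list includes the protease inhibitor genes Timp1, Timp2 and Timp3, which differed by -0.10, 0.02 and -0.12. Mmp9, a gelatinase, differed by -0.44 (SE 0.22), with pair differences of -0.17, -1.18 and 0.03. Mmp2, another gelatinase, and Mmp13, a collagenase, each differed by -0.30 (SE 0.24 and 0.29). Pair medians of the list were -0.17, -0.33 and 0.23, with the signs of the bright collagen chains.

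Of 8 collagen receptors 1 was higher and 1 lower in all 3 pairs. The lower one, Ddr1, a receptor kinase, differed by -0.15 (SE 0.099). The higher one was the dim platelet receptor gene Gp6 (0.29, SE 0.14), and Itga10, an integrin chain, differed by 0.11. Of 15 partners of type IV collagen in basement membranes 1 was higher and 1 lower in all 3 pairs. The laminin chains Lama5, Lama2 and Lama1 differed by 0.48 (SE 0.33), 0.15 (SE 0.10) and -0.18 (SE 0.085). For Lama1, a dim gene, the groups did not overlap with CMPF lower, as in 2.11% of all genes. Of 10 genes of TGF-beta signalling, which induces fibrillar collagens, 1 was higher in all 3 pairs and 0 were lower. That gene, Smad3, a signal mediator, differed by 0.24 (SE 0.35), while the ligand Tgfb2 and the receptor Tgfbr1 differed by -0.20 and -0.10.

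Markers of the cells that make collagen differed between the same arrays. Of 13 stellate and mesenchymal markers 0 were higher and 1 lower in all 3 pairs, against 11.8% and 11.1% of all genes. Their pair medians were -0.23, -0.40 and 0.16, beside -0.20, -0.53 and 0.25 for the bright fibrillar chains. Their mean log2 level ran from 7.91 to 8.42 with vehicle and from 7.67 to 8.60 with CMPF. Dcn, a proteoglycan of collagen fibres, differed by -0.55 (SE 0.33), Mgp by -0.18 (SE 0.19) and Des by 0.14 (SE 0.11). The 12 endothelial markers had pair medians of 0.02, 0.28 and 0.30, beside -0.30, 0.04 and 0.38 for Col4a1 and Col4a2. Of the 12, 6 were higher in all 3 pairs, against 11.8% of all genes, and all 6 lay below the median level. The other 6, Cdh5, Kdr, Flt1, Plvap, Esam and Emcn, lay at or above it. Their pair 1 differences were -0.49, -0.17, -0.08, -0.39, 0.02 and -0.27. The mean level of the 12 ran from 5.71 to 6.12 with vehicle and from 5.72 to 6.38 with CMPF. Sox18, Tie1 and Robo4, all below the median level, differed by 0.40, 0.29 and 0.21. Cdh5, Kdr, Flt1, Plvap, Esam and Emcn differed by 0.07, 0.07, 0.19, -0.04, 0.06 and 0.01. With the block, 5 of the 12 had an unadjusted p under 0.05, against 3.8% of all genes, and 0 passed after adjustment by limma. Other marker lists moved as well: of 10 acinar markers 8 were higher in all 3 pairs, against 11.8% of all genes. With the block 6 of the 10 had an unadjusted limma p under 0.05, against 3.8% of all genes, with 0 past the adjusted threshold. The 6 Schwann cell markers had pair medians of -0.13, -0.09 and 0.29, with the signs of the fibrillar chains. The part of these markers in the collagen values was not tested.

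**Figure D4:**
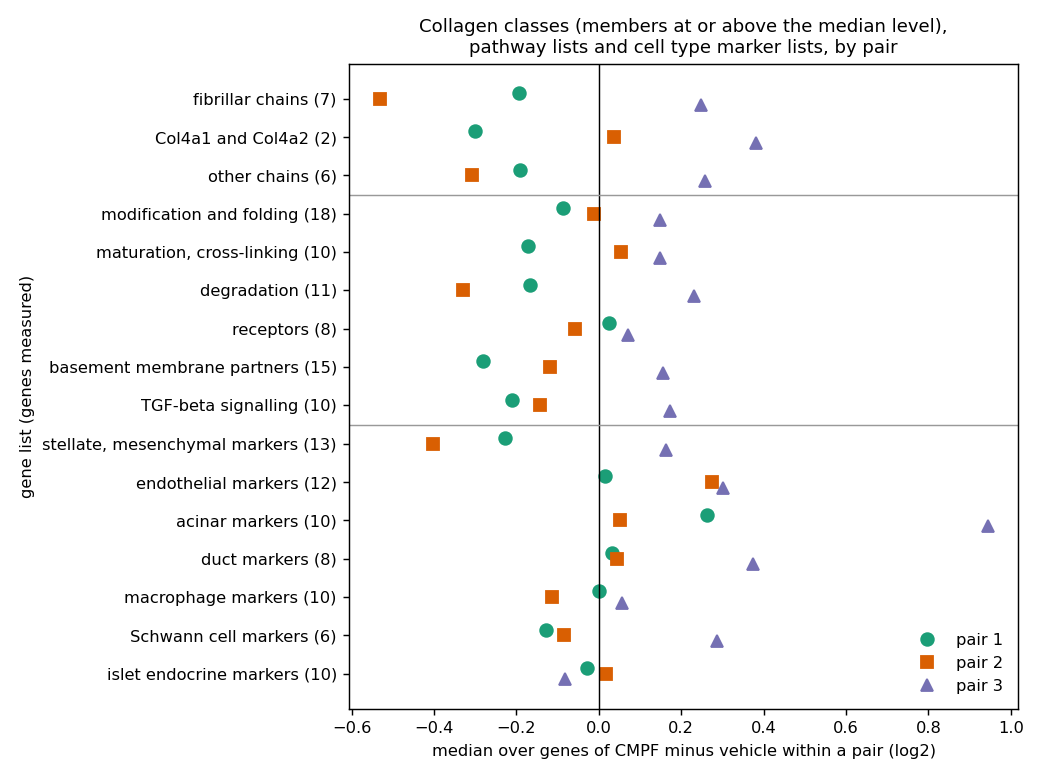
Median over the genes of a list of CMPF minus vehicle within pair 1, 2 and 3, for the bright members of the 3 collagen classes, 6 pathway lists and 7 cell type marker lists; the number of genes is in brackets and symbols are offset vertically for legibility. Fibrillar chains and stellate markers lie left of 0 in pairs 1 and 2 and right of it in pair 3, and Col4a1 with Col4a2 lies near 0 in pair 2.

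The whole series gave few other facts that bear on the members. The lowest correlation between the log2 values of a pair of arrays, taken across genes, was 0.989; genes are not independent replicates. All 10 measured endocrine markers of the islet lay at or above the median level, and the insulin gene Ins2 read 14.61 to 14.73. Acinar markers, from exocrine tissue, had a mean level of 10.96 to 12.82 with vehicle and 11.85 to 12.91 with CMPF, with pair medians of 0.26, 0.05 and 0.94. Of the acinar genes Ctrc, Ctrb1 and Cela3b differed by 0.64, 0.29 and 0.31. Duct, macrophage, Schwann cell and endocrine markers had median differences of 0.10, 0.03, -0.02 and -0.03. The 3' minus 5' signal of the Gapdh control ran from -0.089 to -0.027 with vehicle and from -0.016 to 0.017 with CMPF, without overlap. That of the Actb control overlapped, from 0.70 to 0.83 and from 0.74 to 0.84. Their part in the collagen values was not tested.

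Single arrays set the direction of the bright members. Without CMPF 3, 15 of 15 differences lay below 0, with a median of -0.50 in place of -0.10. Without CMPF 2, 5 of 15 lay below 0, without CMPF 1 or without vehicle 3 the count was 6, and without pair 2 it was 8. Under each of these settings 0 members passed the threshold.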

How the data were processed

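RNA of 6 islet samples was read on an Affymetrix mouse 3' expression array. Per the submitters' processing notes, which name RMA and Affymetrix Expression Console 1.1, the authors deposited log2 levels; how RMA was set is not given in the sources used here. RMA equalises the arrays' distributions (medians 5.08 to 5.15) and compresses differences of dim genes. The number of arrays limits the precision.

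Of 45101 probe sets, 34945 were annotated to 1 gene, 932 to several, 9160 to none, and 64 were controls. No genome build comes with the annotation. The 42 members had 82 single-gene probe sets and matched RefSeq by Entrez ID.

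Groups were compared with limma 3.58.1 in R 4.3.3 (lmFit, eBayes), with two-sided p-values adjusted by Benjamini and Hochberg's method over 18193 genes, called under 0.05; the fit was tested on simulated data. Unless stated, SEs are from the fit without the pair block. Where nothing says that samples came from separate animals, p-values measure only how far these samples spread, possibly for technical reasons. Deviations from the group means of same-numbered arrays correlated at 0.49 to 0.64, those of other arrays at -0.56 to 0.09, so the numbers were taken to pair the arrays, from the data. Deviations within a group sum to 0, so the low second range is not separate evidence for pairs. The block p-values of limma rest on this pairing, which was taken from the same values.

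Members, classes and lists were chosen with earlier results of these data known. By a rule, values on every array are given for members at or above the median level, for others without overlap, and for the 3 largest remaining differences; of each other list the 3 genes with the smallest p are named, and of the islet markers Ins2, chosen after its values were seen. The genes of the rule from the duct, macrophage, Schwann and islet marker lists are not described singly. Alternatives were the block, centring on the median, quantile normalization again, means over probe sets, filters on dim genes, array weights, and leaving out arrays or pairs.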

Additional observations from a re-analysis of the deposited data

How the results depend on the processing

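The number of members past the threshold was 0 under each of the 16 alternatives, as was the number of all genes. That includes the replicate block, which in this balanced design changes errors and p-values but no difference. The count of bright members with a difference below 0, 13 of 15, was chosen after seeing the data. It was 13 under both scalings, 11 with probe set means and 8 with array weights, and the filters cannot alter it. With arrays or pairs left out it ran from 5 to 15, and the bright members' median from -0.50 to 0.050. With the same arrays or pairs left out, the fibrillar median ran from -0.50 to 0.057, the basement membrane median from 0.04 to 0.14 and that of the other chains from -0.08 to 0.12. Outside these ranges, the basement membrane median was 0.018 with probe set means, and the median of the other chains was -0.10 with the filter at the median level. With CMPF 3 left out, 10 members had an unadjusted p under 0.05, among 805 genes in all. Among 19 named members, the difference kept its sign under 16 of 16 alternatives for Col1a1, Col3a1 and Col27a1. It did so under 15 of 15 for Col13a1, Col25a1 and Col22a1, which the filter at the median level leaves out. Each of the other named members changed sign under some alternative. Col5a3 kept its sign under 9 of 16, Col5a1 under 10, and Col6a1 and Col16a1 under 11. The Col3a1 difference ran from -0.63 to -0.0041. The cause of these changes was not tested. The median of all genes was -0.02 with median centring and 0.0078 with quantile normalization. Dim members and 3 arrays a group limit what could be detected.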
